A study of Mus musculus with 12 samples.

Results

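The 10 genes described here form the YAP and TEAD arm of the Hippo pathway, and they were taken by gene name from a deposited expression table of 55862 genes. They comprise the coactivator genes Yap1 and Wwtr1 (which encodes TAZ), the 4 TEAD factor genes Tead1, Tead2, Tead3 and Tead4, and the 4 target genes Ctgf, Cyr61, Ankrd1 and Amotl2. All 10 were found in the table, where Ctgf and Cyr61 stand under their current symbols Ccn2 and Ccn1. RNA was sequenced from 12 brain-derived samples, 3 in each of 4 groups, all labelled C57BL/6, with C57BL/6J given in the methods for the mice of both brain suspensions, to ask how the profile of astrocytes changes in sphere culture and how it compares with that of cells from the brain. ASTs were primary cortical astrocytes of newborn mice, grown as a monolayer in medium with serum and taken at day 0 of incubation as the negative control. A-iSCs were such cells after 5 days of incubation as spheres on an agarose layer that prevents attachment. P56-NPCs, a positive control, were cells dissociated from the subependymal zone of adult mice at postnatal day 56. P0-NPCs, the other positive control, were a hippocampal cell suspension from newborn mice (postnatal day 0). The labels name no transgene or deletion in any group, and the methods describe no sorting of the brain suspensions by a marker. The methods speak in general of 3 independent experiments, but no source ties the 3 sequenced samples of a group to separate cultures or animals, so p-values measure only the spread between these samples.

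YAP and TAZ carry no DNA-binding domain and act on genes by joining a TEAD factor, which binds the short MCAT element in promoters and enhancers. When the Hippo kinases MST and LATS are active they phosphorylate YAP and TAZ, which are then held in the cytoplasm or degraded. When the kinases are inactive, as in spread cells on a stiff substrate, the coactivators enter the nucleus and genes such as Ctgf, Cyr61, Ankrd1 and Amotl2 are transcribed. The values below are RNA levels, which do not measure the phosphorylation or the location of either coactivator.

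The MCAT element, CATTCC or GGAATG on the other strand, was looked for in RefSeq promoters of build GRCm38.p6, in the 250 bases before each annotated start. Entries were matched by symbol for 7 of the 10 genes, with 10 starts in all, and Tead1, Tead4 and Ctgf were not matched. At least 1 MCAT stood before a start of 6 of these 7 genes, in 8 of the 10 entries, and Tead2 had no match. The 2 entries of Wwtr1 overlap and hold the same site, which is counted in each. Of 32851 mouse promoters of the same length, 12.6% held the element. The AP-1 element TGANTCA, held by 6.75% of all promoters, and the CArG box of SRF, held by 1.47%, had 0 matches in the 10 entries. A match describes letters in a sequence and does not show that a factor binds there. Shown next are the promoters of Yap1, Wwtr1 and Cyr61, which hold no exon of the gene itself, 5′ to 3′ on the strand of the gene with the MCAT in capitals. They lie at chr9:8004597-8004846, chr3:57575911-57576160 and chr3:145649986-145650235, each on the minus strand, and the first base of the element is 141, 136 and 103 bases before the start.

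Yap1 promoter: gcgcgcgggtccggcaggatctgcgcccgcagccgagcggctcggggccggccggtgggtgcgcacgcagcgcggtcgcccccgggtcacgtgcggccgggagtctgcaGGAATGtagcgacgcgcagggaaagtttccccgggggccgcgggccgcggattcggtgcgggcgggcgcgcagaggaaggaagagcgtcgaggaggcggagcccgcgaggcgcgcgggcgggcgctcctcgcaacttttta

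Wwtr1 promoter: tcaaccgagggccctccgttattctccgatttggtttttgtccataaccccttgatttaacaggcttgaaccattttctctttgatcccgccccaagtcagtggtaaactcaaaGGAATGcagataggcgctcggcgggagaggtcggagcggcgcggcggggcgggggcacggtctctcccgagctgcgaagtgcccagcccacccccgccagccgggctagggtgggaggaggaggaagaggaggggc

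Cyr61 promoter: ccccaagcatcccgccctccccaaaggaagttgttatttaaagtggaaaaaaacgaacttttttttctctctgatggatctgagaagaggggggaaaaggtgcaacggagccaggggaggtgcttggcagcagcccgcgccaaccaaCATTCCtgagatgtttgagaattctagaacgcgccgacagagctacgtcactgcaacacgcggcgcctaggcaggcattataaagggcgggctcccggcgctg

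Before the starts of Ankrd1 and Amotl2 the matches lie inside exons of other transcripts of the same gene, and 30 bases around each are shown. Tead3 has 1 start with 2 matches, which also lie inside its exons, and 1 start with a match outside them, and none of these is shown. The Ankrd1 sites, on the minus strand at chr19:36120037-36120066 and chr19:36119950-36119979, begin 210 and 123 bases before the start. The Amotl2 site, on the plus strand at chr9:102717727-102717756, begins 65 bases before it.

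Ankrd1 distal site: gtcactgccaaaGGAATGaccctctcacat

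Ankrd1 proximal site: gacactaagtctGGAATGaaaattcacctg

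Amotl2 site: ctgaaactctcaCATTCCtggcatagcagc

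Expression is given as FPKM, a count of fragments scaled to the length of the gene and to the size of the library. Differences were tested with limma on log2(FPKM + 1) over all genes with a mean of at least 1 FPKM in at least 1 of the 2 groups compared, and a gene is called where its Benjamini-Hochberg adjusted p over all those genes is under 0.05. The fragments counted on genes numbered 17077780 to 24452419 per sample. At that depth a gene 1 kilobase long with 3 fragments would read 0.103 to 0.187 FPKM, depending on the sample. Mitochondrial genes took 16.5 to 17.6% of the fragments in P56-NPCs and 2.94 to 7.03% in the other samples. AST replicate 2 and A-iSC replicate 3 stood farthest from the other samples of their group in a chi-square comparison of fragments. The marker genes of other cells differed widely between groups. The 4 oligodendrocyte markers summed to 7851 to 8963 FPKM in P56-NPCs, with all 4 at a mean of at least 1 FPKM, against under 10 FPKM in any other sample. The 5 neuron markers summed to 713 to 897 FPKM in P0-NPCs, 131 to 160 FPKM in P56-NPCs, 81.5 to 118 FPKM in ASTs and 33.4 to 56.04 FPKM in A-iSCs, with Snap25, Rbfox3 and Syt1 under 1 FPKM on average in ASTs and A-iSCs. In ASTs the mean of Stmn2 was 53.8 FPKM, against 7.16 FPKM in A-iSCs. The 6 neural precursor markers summed to 109 to 137 FPKM in P56-NPCs and 211 to 223 FPKM in P0-NPCs, below the 286 to 345 FPKM in A-iSCs and 341 to 366 FPKM in ASTs, so both suspensions are called here by the labels and not by a cell type. The 7 astrocyte markers summed to 117 to 133 FPKM in ASTs, with 6 of 7 at a mean of at least 1 FPKM, to 1182 to 2414 FPKM in A-iSCs, to 2398 to 2624 FPKM in P56-NPCs and to 233 to 295 FPKM in P0-NPCs. The astrocyte list did not move as one. Aqp4 and Aldh1l1 had lower means in P0-NPCs than in ASTs (for Aldh1l1, 14.2 against 28.6 FPKM). Aldoc, Gfap, Slc1a3, Slc1a2 and Gjb6 had higher ones. Gfap, Aqp4 and Aldh1l1 had higher means in A-iSCs than in P56-NPCs, while Aldoc, Slc1a3, Slc1a2 and Gjb6 had lower ones. The 4 ependymal markers summed to 221 to 286 FPKM in P56-NPCs and to 41.5 to 74.0 FPKM in the other samples. Outside P56-NPCs that sum was mostly Foxj1, with means of 43.3 FPKM in ASTs, 44.3 FPKM in A-iSCs and 60.1 FPKM in P0-NPCs. In P56-NPCs Foxj1 was at 62.0 FPKM. Tmem212, Ccdc153 and Rarres2 were at 96.4, 60.8 and 34.6 FPKM there and at 3.56 FPKM or less in every other group mean. In such bulk samples a lower share of cells that express a gene and a lower level per cell cannot be told apart.

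Both coactivator genes and all 4 target genes were highest in ASTs, and so were 3 of the 4 TEAD genes. Between ASTs and A-iSCs, 8 of the 10 genes were called lower in A-iSCs and 0 higher, where 29.6% of 14087 genes tested were lower and 25.2% higher. The samples of ASTs and A-iSCs did not overlap for any of the 10, and 62.7% of all genes tested did not overlap in either direction. The targets differed most. The mean FPKM was 10.1 times as high in ASTs as in A-iSCs for Cyr61, 8.06 times for Ctgf and 7.12 times for Amotl2, against 1.74 times for Yap1 and 1.61 times for Wwtr1. Of the TEAD genes, it was 2.75 times as high for Tead1, 2.62 times for Tead4, 1.45 times for Tead3 and 1.24 times for Tead2. Against ASTs, all 10 genes were lower in P56-NPCs (of 15146 genes tested, 39.8% were lower and 39.1% higher). In P0-NPCs 9 were lower and Tead2 was higher (of 15010 genes tested, 40.9% were lower and 38.1% higher). All 10 did not overlap with ASTs in either comparison, beside 81.9% of the genes tested for P56-NPCs and 81.4% for P0-NPCs. These 3 comparisons share the AST samples. The 7 marker genes of mural cells and fibroblasts summed to 1881 to 2267 FPKM in ASTs, 32.8 to 66.0 FPKM in A-iSCs, 16.3 to 30.7 FPKM in P56-NPCs and 134 to 135 FPKM in P0-NPCs. In ASTs 4 of the 7 had a mean of at least 1 FPKM, led by Acta2 at 1848 FPKM, while Rgs5, Dcn and Lum were under 1 FPKM. The sum rests on Acta2 and Col1a1, and the list did not move as one: Rgs5, Dcn and Lum had higher means in both suspensions than in ASTs, and Col1a2 and Pdgfrb did in P0-NPCs. In P0-NPCs Rgs5 was at 38.6 FPKM and Acta2 at 3.04 FPKM. The 5 microglia markers went the other way between ASTs and A-iSCs, from 20.1 to 23.8 FPKM in ASTs to 193 to 246 FPKM in A-iSCs. The part of these cells in the differences was not tested.

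**Figure D1:**
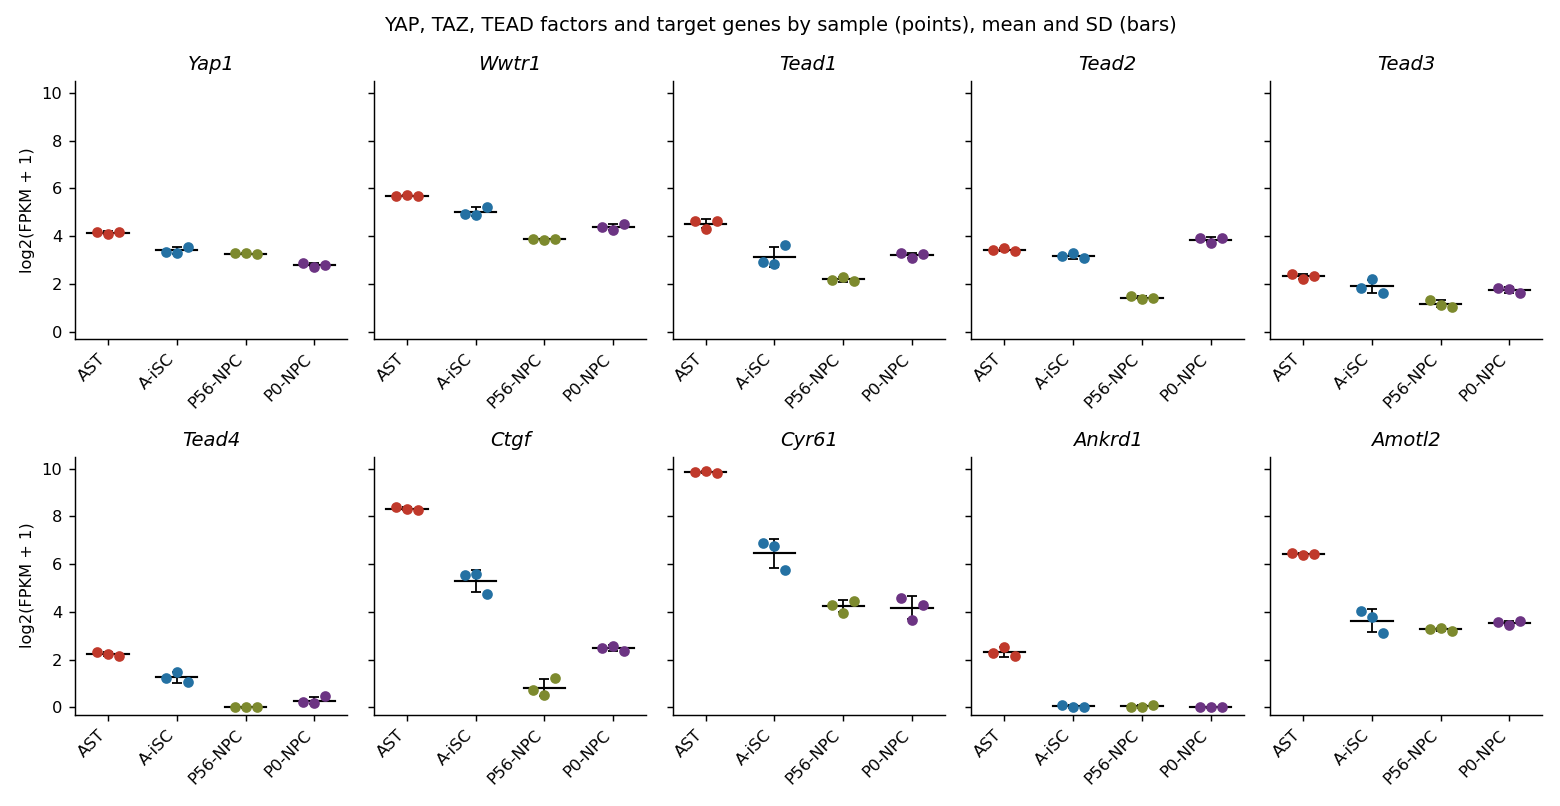
Expression of the 10 genes on the log2(FPKM + 1) scale (vertical axis) in each group (horizontal axis), with 1 point per sample, a line at the mean and an error bar of 1 SD (n = 3). Ctgf and Cyr61 span the widest range, Ctgf from 320 FPKM in ASTs to 0.806 FPKM in P56-NPCs and Cyr61 from 932 FPKM in ASTs to 17.8 FPKM in P0-NPCs, while Tead2 is highest in P0-NPCs.

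Yap1 (ENSMUSG00000053110, chr9:7931999-8004596, minus strand, GRCm38) encodes YAP. Its level was 17.3, 15.8 and 17.2 FPKM in the AST samples and 9.14, 8.92 and 10.7 FPKM in the A-iSC samples. It was 8.77, 8.72 and 8.54 FPKM in P56-NPCs and 6.27, 5.63 and 6.02 FPKM in P0-NPCs. No pair of groups overlapped, and the order was AST, A-iSC, P56-NPC and P0-NPC, with a span of 2.81 times between the ends. Yap1 was lower in A-iSCs than in ASTs by a log2 difference of -0.75 ± 0.11 (SE, n = 3, adjusted p = 0.00124 in limma). The difference between the neighbours A-iSC and P56-NPC was not called, at a log2 difference of 0.13 and a 95% interval of -0.11 to 0.36 (limma, adjusted p = 0.297). Scaling by library size alone turned that difference into a call of 0.63 (adjusted p = 0.00113, limma), in a comparison where that scaling moved the median of all genes from 0.03 to 0.49. P0-NPCs were lower than P56-NPCs by -0.47 ± 0.062 (SE, limma, adjusted p = 0.00023), and under the same scaling the difference was 0.08 and not called, with the median of all genes moved from -0.01 to 0.53.

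Wwtr1 (ENSMUSG00000027803, chr3:57455649-57575910, minus strand) encodes TAZ, the paralog of YAP. It was at 50.3, 52.2 and 50.6 FPKM in the AST samples and at 29.6, 28.6 and 36.7 FPKM in the A-iSC samples. It was at 13.9, 13.5 and 13.6 FPKM in P56-NPCs and at 19.9, 18.2 and 22.1 FPKM in P0-NPCs. The groups did not overlap, in the order AST, A-iSC, P0-NPC and P56-NPC, and all neighbours in it differed in the limma tests. The log2 difference of A-iSCs from ASTs was -0.68 ± 0.13 (SE, limma, adjusted p = 0.00362), that of A-iSCs from P0-NPCs 0.63 ± 0.13 (adjusted p = 0.00423) and that of P0-NPCs from P56-NPCs 0.52 ± 0.077 (adjusted p = 0.000451). Scaling by library size alone raised the last of these to 1.11.

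Because FPKM is a level per length, the coactivators can be set against each other within a sample. Wwtr1 exceeded Yap1 in FPKM in all 12 samples. In fragments, which are not divided by length, Yap1 exceeded Wwtr1 in the 3 P56-NPC samples and in no other. The ratio of Yap1 to Wwtr1 FPKM was 0.304 ± 0.0102 in A-iSCs (SD, n = 3), and it overlapped with the 0.329 ± 0.0223 of ASTs and the 0.298 ± 0.0231 of P0-NPCs. In P56-NPCs the ratio was 0.635 ± 0.0113 (SD, n = 3), above every sample of the other groups. With 3 samples against 3, the exact two-sided permutation test gave p = 0.1 for P56-NPCs against each other group, the smallest p it allows (adjusted p = 0.176 over 30 tests of ratios and shares). Over the coactivators, Yap1 and Wwtr1 summed to 67.8 FPKM in ASTs, 41.3 FPKM in A-iSCs, 26.1 FPKM in P0-NPCs and 22.3 FPKM in P56-NPCs.

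The TEAD factors bind DNA and recruit the coactivators. Tead1 (ENSMUSG00000055320, chr7:112679318-112906807, plus strand) was at 23.7, 18.8 and 23.8 FPKM in the AST samples and at 6.64, 6.14 and 11.3 FPKM in the A-iSC samples. It was at 3.44, 3.93 and 3.32 FPKM in P56-NPCs and at 8.69, 7.41 and 8.42 FPKM in P0-NPCs. Tead1 was the most abundant TEAD gene in ASTs and P56-NPCs, and A-iSC replicate 3 lay well above the other A-iSC samples. It was lower in A-iSCs than in ASTs by a log2 difference of -1.39 ± 0.22 (SE, limma, adjusted p = 0.0016). The neighbours P0-NPC and A-iSC overlapped, with a difference of A-iSCs from P0-NPCs of -0.06 (95% interval -0.55 to 0.42, limma, adjusted p = 0.804). Without A-iSC replicate 3 that difference was called at -0.31 (limma, adjusted p = 0.0195), while leaving out A-iSC replicate 1 gave 0.04 and leaving out replicate 2 gave 0.08.

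Tead2 (ENSMUSG00000030796, chr7:45215753-45233644, plus strand) is known for its expression in the early embryo and in embryonic neural tissue. It was at 9.87, 10.4 and 9.42 FPKM in the AST samples and at 7.92, 8.69 and 7.39 FPKM in the A-iSC samples. It was at 1.78, 1.60 and 1.69 FPKM in P56-NPCs and at 14.1, 12.2 and 14.3 FPKM in P0-NPCs. The groups did not overlap, and Tead2 was the only member highest in P0-NPCs. The neighbours AST and A-iSC differed by -0.28 (95% interval -0.53 to -0.03) without a call (limma, adjusted p = 0.061), and the call depended on the fit. With all 4 groups in it the adjusted p of limma was 0.0167, with upper-quartile scaling the difference was -0.39 (adjusted p = 0.0168, limma), and with scaling by library size alone it was -0.08 (adjusted p = 0.555, limma). P0-NPCs were 8.01 times as high as P56-NPCs, with a log2 difference of 2.43 ± 0.078 (SE, limma, adjusted p = 1.78e-07). They were higher than ASTs by 0.42 ± 0.089 (SE, limma, adjusted p = 0.00299), which scaling by library size alone raised to 0.69. Tead2 shares 13 exon bases with Cd37 on the opposite strand, a leukocyte gene at a mean of 1.01 FPKM in ASTs, 13.3 FPKM in A-iSCs, 5.05 FPKM in P56-NPCs and 0.917 FPKM in P0-NPCs. Whether the counting used strand is not given in the sources used here.

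Tead3 (ENSMUSG00000002249, chr17:28331671-28350817, minus strand) was at 4.37, 3.68 and 3.99 FPKM in the AST samples and at 2.56, 3.63 and 2.11 FPKM in the A-iSC samples. It was at 1.52, 1.16 and 1.07 FPKM in P56-NPCs and at 2.58, 2.47 and 2.06 FPKM in P0-NPCs. The AST samples were the highest, A-iSCs and P0-NPCs overlapped, and P56-NPCs lay below the rest. The log2 difference of A-iSCs from ASTs was -0.43 (95% interval -0.81 to -0.05) and was not called (limma, adjusted p = 0.0569). It was called without A-iSC replicate 2, at -0.59 (limma, adjusted p = 0.0158), and also in limma-voom on fragments at -0.57 (adjusted p = 0.0458), with upper-quartile scaling at -0.53 (adjusted p = 0.025) and with all 4 groups in the limma fit (adjusted p = 0.0186). With scaling by library size alone it was -0.27 (limma, adjusted p = 0.234). P56-NPCs were lower than ASTs by -1.16 ± 0.1 (SE, limma, adjusted p = 3.27e-05).

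Tead4 (ENSMUSG00000030353, chr6:128224288-128300823, minus strand), known for its role in the trophectoderm and in muscle, was at 4.04, 3.69 and 3.44 FPKM in the AST samples and at 1.35, 1.84 and 1.08 FPKM in the A-iSC samples. In P0-NPCs it was at 0.158, 0.134 and 0.383 FPKM, from 65 fragments in all. In P56-NPCs it was at 0.0160 FPKM in replicate 1, from 1 fragment, and at 0 in the others. The groups did not overlap, and the level in both suspensions was below 1 FPKM. The log2 difference of A-iSCs from ASTs was -0.97 ± 0.14 (SE, limma, adjusted p = 0.00101). The 743 fragments in ASTs gave a rate 666 times that in P56-NPCs, with an exact 95% interval of 119 to 26355 that covers counting error only. Its log2 differences against either suspension rest on the added 1 FPKM, and with 0.1 FPKM added the difference of P56-NPCs from ASTs moved from -2.23 to -5.18.

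The 4 TEAD genes summed to 39.7 FPKM in ASTs, 24.3 FPKM in P0-NPCs, 20.2 FPKM in A-iSCs and 6.51 FPKM in P56-NPCs. In ASTs, Tead1 made up 55.5% ± 3.67 of the sum (SD, n = 3) and Tead2 23.5, 28.4 and 23.2% in the 3 samples. In P56-NPCs Tead1 made up 54.8% ± 3.90 (SD, n = 3) and Tead2 26.3, 23.9 and 27.7%. In P0-NPCs the order turned, with Tead2 at 55.7% ± 0.954 and Tead1 at 33.6% ± 0.346. The means of A-iSCs lay between them, with Tead2 at 39.8% ± 5.27 and Tead1 at 39.3% ± 11.1. The 3 A-iSC samples differed, with Tead1 at 36.0%, 30.3% and 51.8% of the sum. The Tead1 share in A-iSCs overlapped with that of every other group. Without A-iSC replicate 3 its mean was 33.1%, below the 33.6% of P0-NPCs. The Tead2 share in A-iSCs overlapped with none of the other groups, and each of those comparisons gave the smallest p of the exact permutation test (p = 0.1, adjusted p = 0.176). Tead4 made up 9.40% ± 0.842 in ASTs, 7.09% ± 2.07 in A-iSCs, 0.915% ± 0.529 in P0-NPCs and 0.0790% ± 0.137 in P56-NPCs. Tead3 made up 19.1% ± 2.90 in P56-NPCs, above every AST and P0-NPC sample. Shares of fragments instead of FPKM raised Tead1, the longest of the 4 genes in the table, to 57.6% in P0-NPCs, so the lead of Tead2 in that group holds per length.

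**Figure D2:**
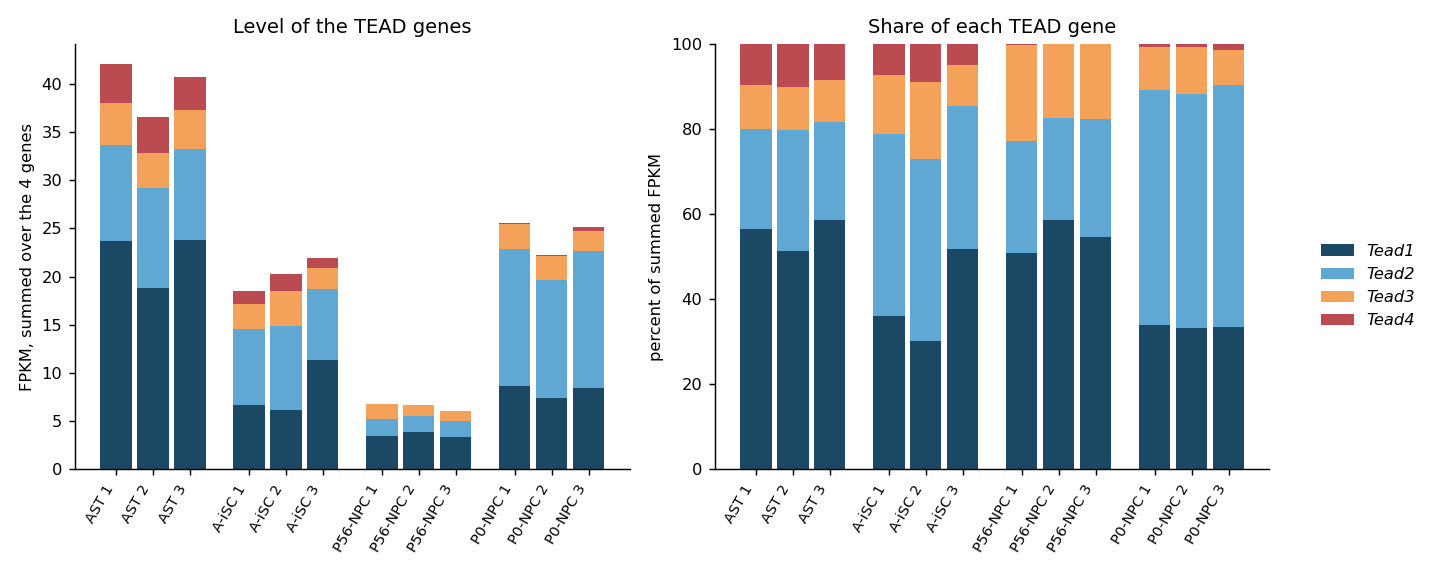
Expression of the 4 TEAD genes in each sample (horizontal axis), stacked as FPKM (left) and as percent of the summed FPKM (right). The sum falls between 36.5 and 42.0 FPKM in ASTs and between 6.08 and 6.76 FPKM in P56-NPCs, and Tead2 takes the larger part in all 3 P0-NPC samples.

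Among the targets, Ctgf (ENSMUSG00000019997, chr10:24595442-24598683, plus strand) encodes connective tissue growth factor, a secreted matrix protein. It was at 336, 318 and 305 FPKM in the AST samples and at 45.7, 47.2 and 26.1 FPKM in the A-iSC samples. It was at 0.644, 0.436 and 1.34 FPKM in P56-NPCs and at 4.57, 5.03 and 4.09 FPKM in P0-NPCs. The groups did not overlap, and all neighbours in the order AST, A-iSC, P0-NPC and P56-NPC differed. The log2 difference of A-iSCs from ASTs was -3.03 ± 0.23 (SE, limma, adjusted p = 4.67e-05), the rank 94 from the lowest among 14087 genes. A-iSCs still exceeded P0-NPCs by 2.83 ± 0.22 (SE, limma, adjusted p = 2.12e-05), and the span between ASTs and P56-NPCs was 397 times. Ctgf shares 665 exon bases with Gm15270, a long non-coding RNA on the other strand whose group means did not exceed 0.512 FPKM.

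Cyr61 (ENSMUSG00000028195, chr3:145646976-145649981, minus strand) encodes a secreted matrix protein of the same family, and it had the highest FPKM of the 10 genes in ASTs, A-iSCs and P56-NPCs, while Wwtr1 had the highest in P0-NPCs. It was at 935, 966 and 895 FPKM in the AST samples and at 117, 106 and 53.5 FPKM in the A-iSC samples. It was at 18.7, 14.6 and 21.02 FPKM in P56-NPCs and at 23.0, 11.8 and 18.6 FPKM in P0-NPCs. The suspensions overlapped, and each A-iSC sample lay between them and ASTs. The log2 difference of A-iSCs from ASTs was -3.40 ± 0.29 (SE, limma, adjusted p = 7.95e-05), the rank 56 from the lowest among 14087 genes. A-iSCs exceeded P56-NPCs by 2.22 ± 0.3 (SE, limma, adjusted p = 0.000598) and P0-NPCs by 2.28 ± 0.33 (SE, limma, adjusted p = 0.000577). The neighbours P56-NPC and P0-NPC gave a log2 difference of -0.06 (95% interval -0.6 to 0.48, limma, adjusted p = 0.825).

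Amotl2 (ENSMUSG00000032531, chr9:102716672-102733418, plus strand) encodes an angiomotin family protein that binds YAP and is itself a target. It was at 87.0, 81.5 and 84.2 FPKM in the AST samples and at 15.2, 12.7 and 7.57 FPKM in the A-iSC samples. It was at 8.86, 8.91 and 8.09 FPKM in P56-NPCs and at 10.8, 9.90 and 11.3 FPKM in P0-NPCs. Unlike ASTs, the A-iSC samples overlapped with both suspensions. The log2 difference of A-iSCs from ASTs was -2.78 ± 0.23 (SE, limma, adjusted p = 6.28e-05), while those from P56-NPCs (0.37, 95% interval -0.17 to 0.9, adjusted p = 0.196) and P0-NPCs (0.09, 95% interval -0.43 to 0.61, adjusted p = 0.745) were not called. Without A-iSC replicate 3 both were called, at 0.63 (adjusted p = 0.00102) and 0.35 (adjusted p = 0.0154, limma), and without A-iSC replicate 1 the latter was -0.11.

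Ankrd1 (ENSMUSG00000024803, chr19:36111961-36120099, minus strand) encodes a nuclear ankyrin repeat protein best known from heart and skeletal muscle. It was at 3.84, 4.84 and 3.43 FPKM in the AST samples, from 653 fragments. In A-iSCs it was at 0.0688, 0 and 0.0129 FPKM, from 5 fragments in all. P56-NPCs held 4 fragments, all in replicate 3, and P0-NPCs held 1. Ankrd1 thus had at least 184 fragments in every AST sample and was below 0.1 FPKM in each of the 9 others. Of these, A-iSC replicate 1 and P56-NPC replicate 3, with 4 fragments each, lay just above the floor of 3 fragments. The rate in ASTs was 166 times that in A-iSCs (exact 95% interval 70.8 to 513, counting error only). Among A-iSCs and the suspensions it did not reach the level needed for a test, and the 5 fragments of A-iSCs against the 4 of P56-NPCs gave a rate ratio of 0.881 (exact 95% interval 0.190 to 4.44), at which no difference could be detected.

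Of the 3 A-iSC samples, replicate 3 held the highest Yap1, Wwtr1 and Tead1 and the lowest Tead2, Tead3, Tead4, Ctgf, Cyr61 and Amotl2, and for Ankrd1 it lay between the others. Against ASTs, 8 genes were called lower with or without it. It was also the A-iSC sample with the lowest mitochondrial share, 3.05% of fragments against 5.49 and 7.03%, and its part in these values was not tested.

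Set against P56-NPCs, A-iSCs were called higher for 7 of the 10 genes and lower for 0 (30.1% of 15044 genes tested were higher and 30.9% lower), and Ankrd1 was not tested. The groups did not overlap for 8 of the 10, beside 68.5% of the genes tested. Set against P0-NPCs, they were higher for 5 genes, namely Yap1, Wwtr1, Tead4, Ctgf and Cyr61 (31.5% of 15170 genes tested), and lower (33.6%) for Tead2 by -0.69 ± 0.11 (SE, limma, adjusted p = 0.00102). Here 6 of the 10 did not overlap, beside 70.7% of the genes tested. These comparisons share the A-iSC samples. P0-NPCs were higher than P56-NPCs for 6 genes (39.0% of 15394 genes tested) and lower for Yap1 (39.7%), and 8 of the 10 did not overlap, beside 81.2%. Tead4 is among the 8, from 65 fragments in P0-NPCs and 1 in P56-NPCs. Tead4 and Ankrd1 were not tested between the suspensions, and Ankrd1 was also not tested between A-iSCs and P0-NPCs. The overlap counts include genes not tested, while the shares beside them cover tested genes only. The microglia markers summed to 231 to 240 FPKM in P56-NPCs and 23.0 to 31.2 FPKM in P0-NPCs, against the 193 to 246 FPKM in A-iSCs. Between P56-NPCs and A-iSCs the list split. The means of P2ry12 (60.2 against 7.30 FPKM) and Tmem119 (52.2 against 16.8 FPKM) were higher in P56-NPCs. Those of Aif1 (7.35 against 41.6 FPKM), Cx3cr1 (40.7 against 61.1 FPKM) and Csf1r (76.2 against 87.5 FPKM) were lower. The 5 endothelial markers summed to 69.6 to 71.0 FPKM in P0-NPCs with all 5 at a mean of at least 1 FPKM, and to under 4 FPKM in any other sample, with Cldn5 at 0 in every AST sample. The part of microglia or endothelial cells in these differences was not tested.

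**Figure D3:**
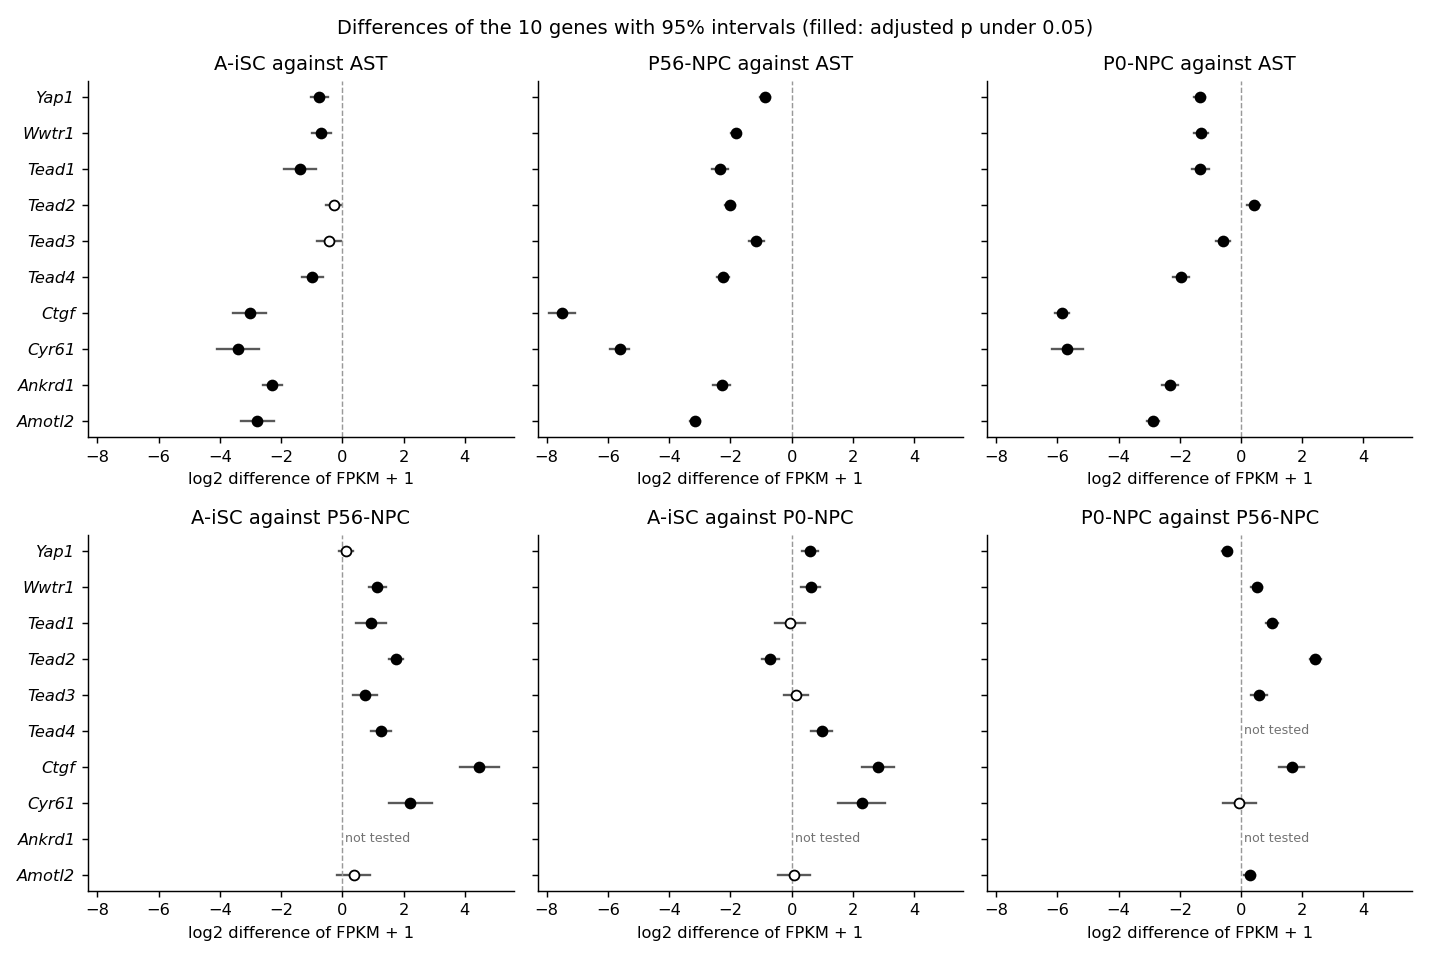
Log2 differences of FPKM + 1 (horizontal axis) of the 10 genes (vertical axis) in 6 comparisons of 2 groups, the first named group over the second, with 95% intervals from limma (n = 3 per group). Filled points are called at an adjusted p under 0.05, and Ctgf and Cyr61 have the largest differences from ASTs, down to -7.50 and -5.68.

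The wider pathway was followed in 4 lists of genes, with Lats2 and Ptpn14 each in 2 of them. Of the 15 genes of the Hippo kinase core and its adaptors, 14 were tested between A-iSCs and ASTs, 5 were called lower, 0 higher and 9 were not called, where 29.6% of all genes tested were lower, so that the count is near the background. Their median log2 difference was -0.27, beside -0.06 for all genes tested. Lats2, a kinase of YAP that is itself a YAP target, was lowest at -2.75 ± 0.14 (SE, limma, adjusted p = 1.01e-05), from 46.8 ± 6.59 FPKM in ASTs to 6.09 ± 0.816 FPKM in A-iSCs (SD, n = 3). Wwc2, a scaffold of the KIBRA family, differed by -1.74 and its relative Wwc1 by -1.25, and Mob1b, a cofactor of LATS, by -0.58. The kinase genes Stk3 and Stk4, which encode the MST kinases, gave -0.32 and 0.30 and were not called, and Lats1 was listed at 0 in all AST and A-iSC samples, which can be a failure of counting and does not show that the gene was silent. Without A-iSC replicate 3, 9 of the list were called, 8 lower and 1 higher, and with all 4 groups in the fit 9 were called, 6 lower and 3 higher.

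Of the 10 other binding partners of YAP, TAZ and TEAD, 8 were tested, and 6 were called lower in A-iSCs and 0 higher, beside 29.6% lower and 25.2% higher among all genes tested. The median was -1.65, beside -0.06 for all genes. Vgll3, a TEAD cofactor that competes with YAP, was lowest at -3.09 ± 0.12 (SE, limma, adjusted p = 4.65e-06), from 20.9 ± 1.57 FPKM in ASTs to 1.59 ± 0.241 FPKM in A-iSCs (SD, n = 3). Ajuba, a LIM protein that restrains LATS, differed by -2.30 and its relative Wtip by -0.87, while Amotl1, an angiomotin, differed by -1.20. In P56-NPCs 7 of 8 were lower than in ASTs, beside 39.8% of all genes tested, and in P0-NPCs 6 of 8, beside 40.9%, with 0 higher in either.

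Of the 8 cell surface genes upstream of the kinases, 5 were tested, and 2 were called lower and 2 higher, beside 29.6% and 25.2% of all genes tested. Fat1 (-1.95) and Crb2 (-1.07), which encode an atypical cadherin and an apical polarity protein, were the lower ones in A-iSCs. Dchs1 (0.95), whose product is a ligand of FAT4, and the atypical cadherin gene Fat3 (0.68) were higher. The median of the list was -0.22, beside -0.06 for all genes. Without A-iSC replicate 3, 1 was called higher.

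Of 18 further YAP and TAZ target genes, 17 were tested, and 13 were called lower in A-iSCs, 1 higher and 3 were not called, with a median of -1.10. The share lower of the genes tested among all genes was 29.6%, as given above. Igfbp3, an IGF-binding protein, was lowest at -3.10 ± 0.26 (SE, limma, adjusted p = 6.55e-05), from 587 ± 52.5 FPKM in ASTs to 70.2 ± 22.9 FPKM in A-iSCs (SD, n = 3), followed by Crim1 at -2.88. The smallest called difference downward was that of Fjx1 at -0.45, and Gadd45a, a gene of the DNA damage response, was higher at 1.03 ± 0.2 (SE, limma, adjusted p = 0.00409). In P56-NPCs 14 of 17 were lower than in ASTs and 1 higher, beside 39.8% lower among all genes tested, and in P0-NPCs 13 of 17 were lower and 3 higher, beside 40.9%. In A-iSCs 7 of 15 were higher than in P56-NPCs and 3 lower, beside 30.1% and 30.9% of all genes tested, with a median of 0.21. Against P0-NPCs 11 of 16 were higher and 4 lower, beside 31.5% and 33.6%, with a median of 1.02.

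**Figure D4:**
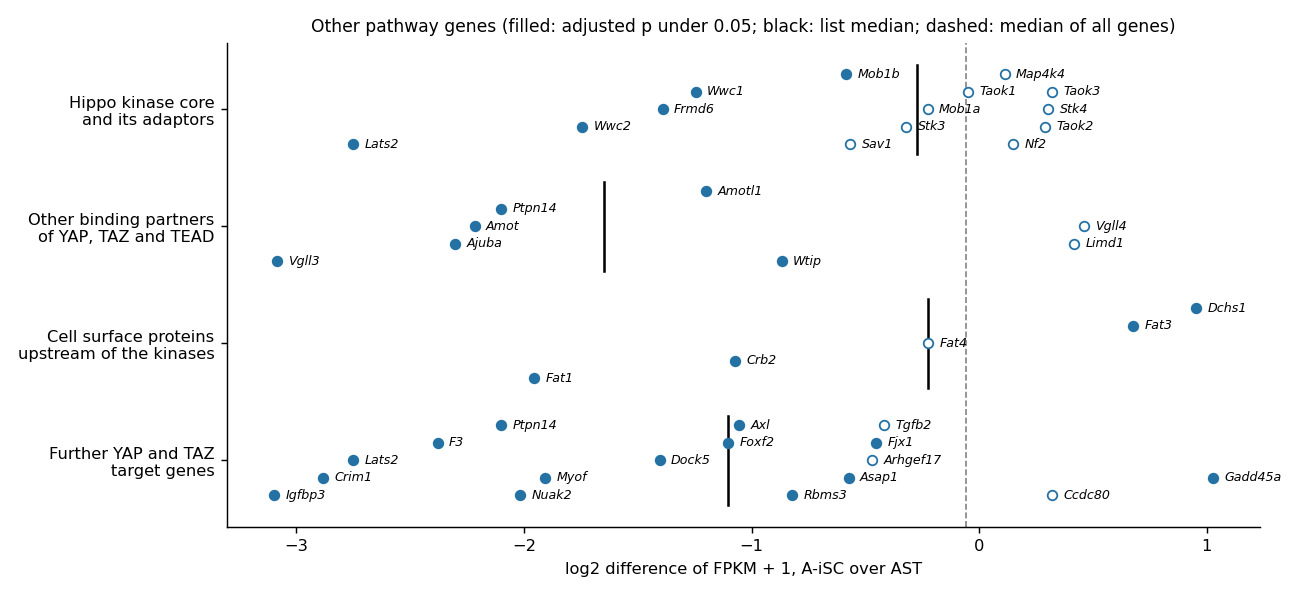
Log2 differences of FPKM + 1 of A-iSCs over ASTs (horizontal axis) for the tested genes of 4 pathway lists (vertical axis), with 1 point per gene, filled where called at an adjusted p under 0.05. The black line is the median of a list, from -1.65 for the binding partners to -0.22 for the cell surface genes, and the dashed line is the median of all genes at -0.06.

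Genes with a pattern like that of a member were ranked among 13659 protein-coding genes by the root mean square difference over the 12 samples of log2(FPKM + 1), after each gene's own mean was removed. The closest to Ctgf were Igfbp3 at a distance of 0.283, Lgals1 at 0.285 and Tubb6 at 0.471. Lgals1, which encodes galectin-1, had a mean of 2430 FPKM in ASTs, 399 FPKM in A-iSCs, 37.0 FPKM in P0-NPCs and 14.6 FPKM in P56-NPCs. Among the closest to Cyr61 were Gprc5a at 0.327 and Cdkn2a at 0.434, with means of 54.0 and 48.9 FPKM in ASTs and under 1 FPKM in both suspensions. Yap1 had closer matches, with Creb3l2 at 0.0596, Atxn1 at 0.0759 and Iars2 at 0.0761, and its pattern spans fewer log2 units. Tead2 was followed by Foxc1 at 0.215, Emilin1 at 0.234 and Efna4 at 0.242, all of them lowest in P56-NPCs. Among the members, Wwtr1 was the closest to Yap1, Tead1, Tead3 and Tead4, Ctgf and Cyr61 were closest to each other at 0.901, and Ankrd1 and Amotl2 to each other at 0.378. These distances describe 12 samples in 4 groups and carry no test.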

How the data were processed

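The authors deposited 1 table of FPKM with gene length and position for 12 samples, made from paired-end libraries of a NEBNext Ultra kit. The submitters' processing notes list Bowtie 0.12.2 and the genome build mm8, but of 55154 identifiers also found in GENCODE M21, 54899 stood at their GRCm38 position, so positions are given on that build. Aligner settings and strand handling are not given in the sources used here. FPKM times gene length was a whole multiple of 1 step in each sample (100% of values within 0.05), so fragments were recovered. The FPKM were already scaled between samples by the authors, with library sizes of 0.744 to 1.22 times the recovered totals.

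The software was limma 3.58.1 in R 4.3.3, and scipy 1.17.1, matplotlib 3.10.9, pandas 2.3.3 and numpy 2.4.6 in Python 3.11.15. lmFit and eBayes with a trend were run on log2(FPKM + 1) for 6 comparisons of 2 groups. DESeq2, the tool of the study's methods, was not run. As a count-based alternative limma-voom was applied to the fragments. P0-NPCs against P56-NPCs is not a comparison of the study and was added for neighbours in the order of levels. Shares and ratios were compared by exact two-sided permutation tests. Alternatives were 0.1 FPKM added, no filter, all 4 groups in the fit, a replicate block, library-size and upper-quartile scaling, limma-voom on fragments, an adjusted p under 0.01, shares of fragments, and each sample left out in turn.

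The members, lists and tests were chosen with earlier results of these data known. All 10 members are named. Of each pathway list, the 2 lowest and 2 highest called genes of A-iSCs over ASTs are named, with Stk3, Stk4 and Lats1 added after their values were seen, and for Yap1, Tead2, Ctgf and Cyr61 the 3 closest protein-coding genes, of which 1 is not reported here. Proteins were not compared here. Replicate numbers did not pair the samples: in no comparison was every correlation of same-numbered samples over 0.1. All 12 samples entered.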

Additional observations from a re-analysis of the deposited data

How the results depend on the processing

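Each of 56 differences of a member between 2 groups was recomputed under 14 alternatives, which gave 784 values, of which 764 kept the direction and the side of the threshold, 8 changed sign, and with the sign kept 11 gained a call and 1 lost it. The 8 were differences that were not called, except Yap1 in P0-NPCs against P56-NPCs, which also lost its call, at 0.080 (adjusted p = 0.304, limma) with scaling by library size alone. With that scaling Cyr61 in the same comparison was 0.54, and leaving out 1 sample gave -0.26 (without P0-NPC replicate 1) to 0.20 (without P0-NPC replicate 2), with 0.05 without P56-NPC replicate 3. In A-iSCs against P0-NPCs, leaving out 1 sample gave Tead1 -0.31 to 0.085, with 0.04 without A-iSC replicate 1, Tead3 -0.013 to 0.27 and Amotl2 -0.11 to 0.35. Amotl2 in P0-NPCs against P56-NPCs lost its call with all 4 groups in the fit (0.28, adjusted p = 0.181, limma). The cause was not tested. The number of called members stayed within 1.5 times of the value reported under all alternatives.

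Scaling moved all genes together. Library size alone moved the median log2 difference of A-iSCs from ASTs from -0.06 to 0.13, with 4563 genes higher and 2989 lower in place of 3550 and 4165, and upper-quartile scaling moved it to -0.17, with 3027 higher and 4955 lower. In that comparison the 8 called members kept their calls under both.

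For the kinase core, 9 genes were called between A-iSCs and ASTs with all 4 groups in the fit, against 5, and leaving out 1 sample gave 4 to 9. At an adjusted p under 0.01 the list had 5 calls for A-iSCs against P56-NPCs and 4 against P0-NPCs, in place of 8 in each, and leaving out 1 sample gave 6 to 9 and 5 to 10. Of the cell surface genes, 7 were called in P56-NPCs against ASTs and 5 in A-iSCs against P0-NPCs without the filter on low values, against 4 and 3. At an adjusted p under 0.01, 1 of them was called between A-iSCs and P56-NPCs, against 4, and leaving out 1 sample gave 2 to 4. Of the binding partners, 2 were called between P0-NPCs and P56-NPCs with all 4 groups in the fit, against 4.

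Shares of fragments, which are not divided by gene length, gave Tead1 77.2% in ASTs, 62.6% in A-iSCs, 74.5% in P56-NPCs and 57.6% in P0-NPCs, and Tead2 12.3%, 23.0%, 12.5% and 33.7%. They gave Tead3 6.96% in ASTs, 12.9% in P56-NPCs and 8.30% in P0-NPCs, and Tead4 3.48% in ASTs and 3.11% in A-iSCs. The ratio of Yap1 to Wwtr1 became 0.636 in ASTs, 0.590 in A-iSCs, 1.23 in P56-NPCs and 0.578 in P0-NPCs.

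The replicate numbers are shared between groups but no source says that they mark a pair, and the correlations of same-numbered samples between ASTs and A-iSCs were -0.41, 0.35 and 0.45. In no comparison did every sample correlate best with its own number. With the replicate number as a block, 8 members were called between A-iSCs and ASTs, 10 in each suspension against ASTs, 7 and 6 between A-iSCs and P56-NPCs or P0-NPCs, and 7 between the suspensions, as without it, and 0 of 56 member calls changed. Over all genes the block gave 3694 higher and 4250 lower in A-iSCs than in ASTs.

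For low genes the added value sets the difference: limma-voom on fragments gave Ankrd1 -7.55 in A-iSCs against ASTs, and 0.1 FPKM added in place of 1 gave -5.05. Totals of 5, 4 and 1 fragments over the 3 samples limit what can be said of Ankrd1 in A-iSCs, P56-NPCs and P0-NPCs, as does 1 fragment of Tead4 in P56-NPCs.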
